A study of Drosophila melanogaster with 24 samples.

Results

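The binding sites of CLAMP, seen with the first of its 2 antibodies, were set beside those of the insulator protein Mod(mdg4) in mock-treated Kc167 cells, a Drosophila melanogaster line derived from embryos. Each protein was mapped by chromatin immunoprecipitation with sequencing (ChIP-seq) in 2 libraries, which the authors pooled into 1 list of peaks, called against 2 input libraries of its own as the labels assign them. Counting the arms of chromosomes X and 4 with 2L, 2R, 3L and 3R, the lists held 5370 CLAMP and 1732 Mod(mdg4) peaks, 7102 of the 25738 peaks in the 6 lists of the series. The rabbit CLAMP antibody came from a commercial source and the Mod(mdg4)2.2 serum was also raised in rabbit. The other lists are used below as annotation of the same sites. They hold Su(Hw) and CP190 peaks and peaks of another CLAMP antibody from mock cells, and peaks of that other antibody from cells transfected with Clamp double-stranded RNA (dsRNA). All groups share the same cell line, and the mock cells are labelled as mock. A peak counted as shared where it had at least 1 base in common with a peak of the other list, and as CLAMP alone or Mod(mdg4) alone where it had none. Every class was described inside and outside the centromere-proximal parts, meaning 2L from 22 Mb, 3L from 23 Mb, 3R below 4.5 Mb and X from 21 Mb.

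CLAMP is a zinc-finger protein that binds GA-rich repeats and is known for its part in dosage compensation of the X chromosome. Mod(mdg4) is a BTB-domain protein without sequence-specific DNA contact of its own in the gypsy insulator complex, where Su(Hw), a zinc-finger protein, recruits it together with CP190. Insulators are sites that limit contact between enhancers and promoters on either side of them. The sequence around the centromeres is heterochromatin, rich in transposon remains and other repeats and poor in genes, which makes reads harder to place there.

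Sharing between CLAMP and Mod(mdg4) divided into a large centromere-proximal group and a small group on the rest of the arms. Of the 1732 Mod(mdg4) peaks, 565 (32.6%) overlapped a CLAMP peak, and 415 of these lay inside the centromere-proximal parts. Inside, 415 of 462 Mod(mdg4) peaks were shared (89.8%, 95% Wilson interval 86.7 to 92.3). Outside, 150 of 1270 were shared (11.8%, 10.2 to 13.7), and the intervals of the inside and outside shares do not overlap. Seen from CLAMP, 436 of 5370 peaks overlapped Mod(mdg4) (8.12%), with 288 of 891 inside (32.3%, 29.3 to 35.5) and 148 of 4479 outside (3.3%, 2.82 to 3.87). CLAMP alone was thus the largest class, with 603 peaks inside and 4331 outside, while Mod(mdg4) alone held 47 and 1120. Among the strongest 50% of each list the Mod(mdg4) share was 35 of 48 inside (72.9%) and 51 of 818 outside (6.23%). The strongest 1000 of each list held 80 Mod(mdg4) but 15 CLAMP peaks inside, and the part of these counts in the shares was not tested. At that setting the Mod(mdg4) share was 2 of 80 inside (2.5%, 0.688 to 8.66) and 22 of 920 outside (2.39%, 1.58 to 3.59), and the CLAMP share was 2 of 15 inside (13.3%, 3.74 to 37.9) and 22 of 985 outside (2.23%, 1.48 to 3.36). Asking for summits within 250 bases in place of any overlap gave 219 of 462 inside (47.4%, 42.9 to 52) and 116 of 1270 outside (9.13%, 7.67 to 10.8).

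Each list is a single pooled set without replicate lists. For that reason no test between conditions was possible here, and the intervals cover counting error over peaks only.

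**Figure D1:**
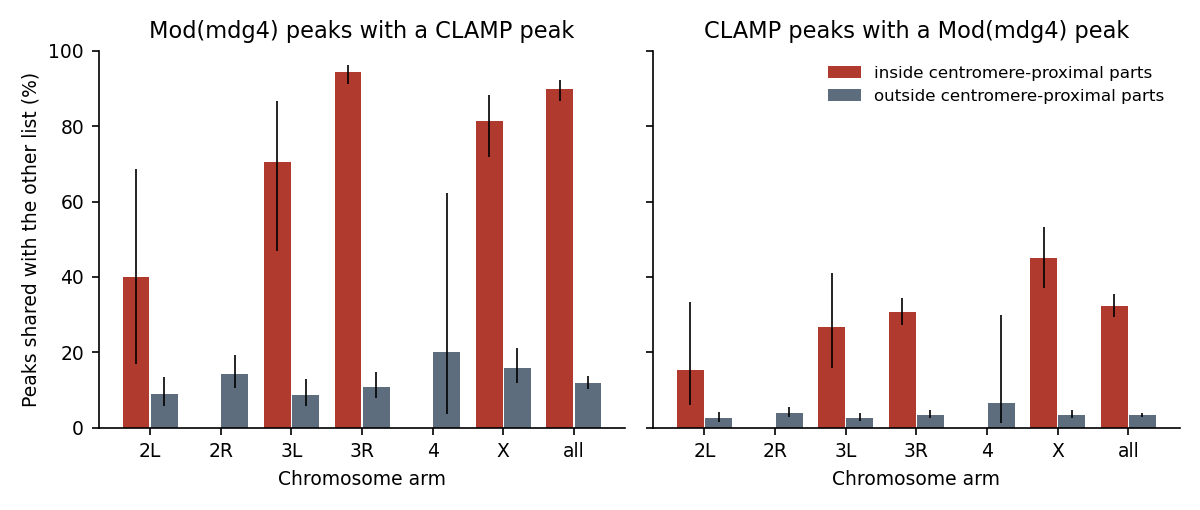
Share of Mod(mdg4) peaks with a CLAMP peak (left) and of CLAMP peaks with a Mod(mdg4) peak (right) in percent, by chromosome arm, inside (red) and outside (grey) the centromere-proximal parts. Bars are shares and lines are 95% Wilson intervals. Arms 2R and 4 have no inside part by definition, and the inside bars for Mod(mdg4) range from 40% on 2L to 94.3% on 3R against 8.73% to 20% outside.

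The centromere-proximal sites were concentrated on 3R and X. On 3R, 329 of 349 Mod(mdg4) peaks inside were shared (94.3%, 91.3 to 96.3). On X the count was 70 of 86 (81.4%, 71.9 to 88.2). The remaining parts held few Mod(mdg4) peaks, with 12 of 17 shared on 3L and 4 of 10 on 2L. Outside, the shares by arm were close together, from 8.73% on 3L to 16% on X among the long arms, and their intervals overlapped. On arm 4 there were 5 Mod(mdg4) peaks, of which 1 was shared.

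Peaks were denser inside than outside on 3R and X, and sparser inside on 3L and 2L. CLAMP had 151 peaks per Mb in the 3R part and 36.2 per Mb on the rest of 3R. Mod(mdg4) had 77.6 and 12 per Mb. On X the CLAMP density was nearly level, at 55.2 peaks per Mb inside and 51.5 outside. That of Mod(mdg4) on X was 33.9 inside and 11 outside. On 3L CLAMP had 8.84 peaks per Mb inside and 36.2 outside, and Mod(mdg4) 3.34 and 11. On 2L CLAMP had 17.2 and 31.1, and Mod(mdg4) 6.61 and 9.18. Higher sharing inside thus did not go with higher density on these 2 arms. The distance from a Mod(mdg4) summit to the next one on the arm had a median of 1217 bases inside and 16800 bases outside. For CLAMP these medians were 1094 and 3199 bases. Crowded peaks overlap more readily, and the part of crowding in the shared counts was not tested.

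**Figure D2:**
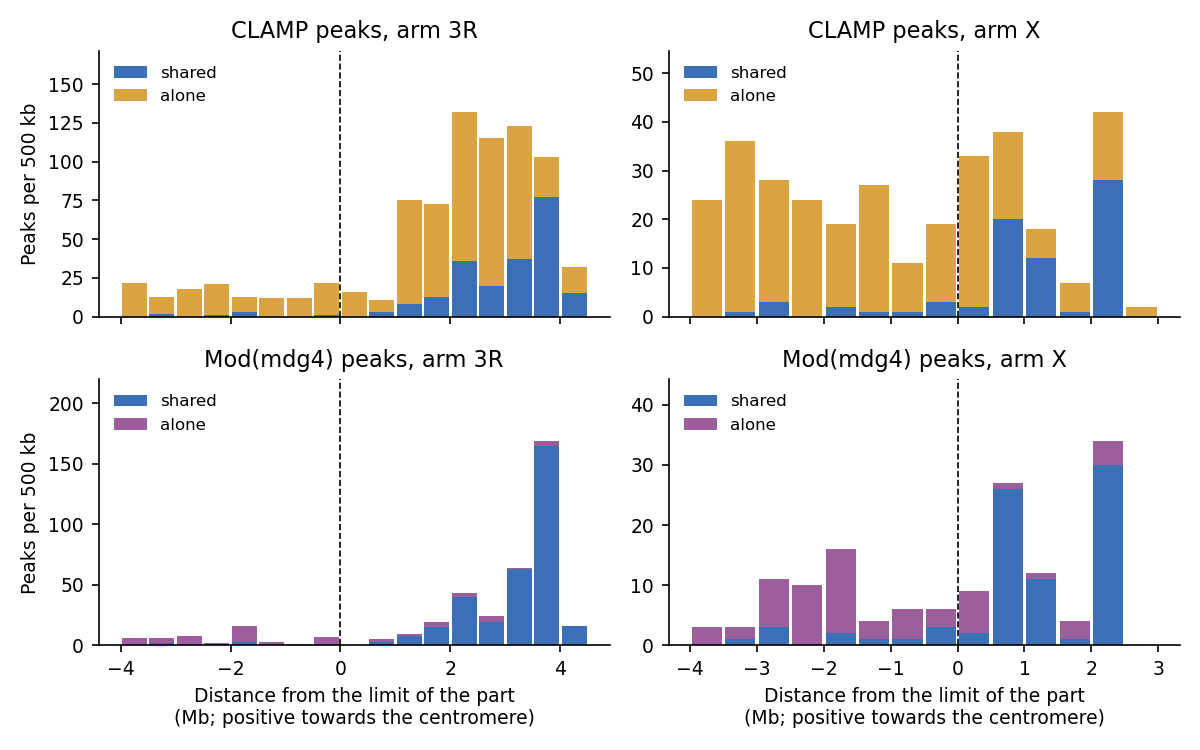
Peaks per 500 kb window on arms 3R (left) and X (right) for CLAMP (top) and Mod(mdg4) (bottom), against the distance in Mb from the limit of the centromere-proximal part, which is the dashed line. Blue marks shared peaks and the other colour peaks of that list alone. Mod(mdg4) reached 169 peaks in the 3R window from 3.5 to 4 Mb inside the limit, 165 of them shared.

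Within the 3R part sharing was densest far from the limit. In the first Mb of the arm 181 of 185 Mod(mdg4) peaks (97.8%) and 92 of 135 CLAMP peaks (68.1%) were shared. Between 3 and 4 Mb the counts were 11 of 14 and 11 of 86. From 4 to 4.5 Mb there was no Mod(mdg4) peak, and of the 16 CLAMP peaks there 15 overlapped CP190 and 0 overlapped the dsRNA list. In these measures the 16 peaks stood nearer to the CLAMP-alone peaks outside than to those inside. Of CLAMP-alone peaks, 56.2% outside and 10.4% inside had CP190, and 2.19% and 58.5% had a dsRNA peak.

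A single annotated gene spanned most of these sites. Myo81F, which encodes a myosin, covers 3R from 567076 to 2532932 (dm6, 1970 kb) and held the summits of 288 Mod(mdg4) and 466 CLAMP peaks. Of these Mod(mdg4) peaks 275 were shared (95.5%, 92.4 to 97.3), which is 66.3% of all shared Mod(mdg4) peaks inside. The fold enrichment of the shared Mod(mdg4) peaks in Myo81F, which the authors deposited as a ratio of ChIP over background, had a median of 2.53 and ran from 1.72 to 4.02. These were thus weak peaks in large number. Without the span of Myo81F, 140 of the 174 other Mod(mdg4) peaks inside were shared (80.5%, 73.9 to 85.7).

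Other heterochromatic genes with shared sites were few. Of 34 genes listed as lying in pericentromeric heterochromatin, 5 held the summit of a shared Mod(mdg4) peak in their span. Beside Myo81F these were Pzl, a Piezo-like channel gene with 17, Snap25 with 6, lncRNA:flam with 5 and Parp1, which encodes a poly(ADP-ribose) polymerase, with 3. lncRNA:flam is the flamenco locus, which gives rise to small RNAs against transposons, and its 5 shared Mod(mdg4) peaks had folds of 2.74 to 3.24. The other 29 listed genes, among them the long-studied lt and rl, had no Mod(mdg4) summit in their span that could be shared. Of the 34 genes 23 lie inside the parts as defined here, and those on 2R, such as rl, count as outside. Sites between genes were common too. Of the shared Mod(mdg4) summits inside, 74.0% lay in a gene span and 22.4% lay more than 10 kb from any gene.

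The SNARE gene Snap25 on 3L carried 5 of the 10 best-ranked centromere-proximal pairs. It held 6 pairs of CLAMP and Mod(mdg4) peaks within 6.66 kb, between 24169179 and 24175835 (3L, dm6, in the span of Snap25 from 24074180 to 24299205). The Mod(mdg4) folds along this stretch were 4.19, 6.49, 7.5, 6.37, 5.56 and 6.78, and the CLAMP folds of the same sites were 3.62, 5.08, 6.47, 5.03, 4.25 and 5.39. The order of the 6 sites by fold was the same for both proteins. Summits of the paired peaks lay 0 to 6 bases apart, and the peak edges differed by at most 10 bases. All 6 sites also overlapped a peak in each of the 4 other lists, where 1 broad peak can cover several of the sites. Su(Hw) folds ran from 4.94 to 9.16, CP190 folds from 3.38 to 7.61, and folds after dsRNA from 2.19 to 2.67. The sites were thus marked in all 6 lists of the series.

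The other strong centromere-proximal shared sites were mostly distant from genes. On X, the site nearest to lncRNA:CR44997 (22652326 to 22652981) had 7.34-fold Mod(mdg4) and 5.68-fold CLAMP enrichment, with 18.3-fold Su(Hw) and 14.9-fold CP190. It had no peak after dsRNA and lay 4651 bases from the gene. The site nearest to CG41562 on X had 6.8-fold CLAMP, the highest of the shared CLAMP peaks inside, with 3.36-fold Mod(mdg4) and a 4.59-fold peak after dsRNA. The site nearest to UQCR-11, a gene for a subunit of mitochondrial complex III, had 5.96-fold Mod(mdg4) and 4.35-fold CLAMP. A site 5284 bases from the ribosomal RNA pseudogene 28SrRNA-Psi:CR45859 had 5.08 and 4.41, and a site 26041 bases from CG40813 had 3.93 and 4.9. The last of these sites had no Su(Hw), CP190 or other-antibody CLAMP peak, but had a 5.95-fold peak after dsRNA. With the Snap25 sites, these complete the 10 pairs inside that ranked best in both lists together.

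Inside and outside, shared sites differed in which other lists marked them. Outside, 140 of 150 shared Mod(mdg4) peaks had Su(Hw) (93.3%, 88.2 to 96.3) and 142 had CP190 (94.7%, 89.8 to 97.3). Inside, 76 of 415 had Su(Hw) (18.3%, 14.9 to 22.3) and 15 had CP190 (3.61%, 2.2 to 5.88). The share with neither was 4.0% outside and 81.4% inside. Shared sites on the arms were thus nearly all gypsy-type sites with both partners, and most of those near the centromeres were not.

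The list from cells given Clamp dsRNA showed the opposite. Inside, 382 of 415 shared Mod(mdg4) peaks overlapped a peak of that list (92.0%, 89 to 94.3). Outside, 15 of 150 did (10.0%, 6.15 to 15.8). This list was made with the other CLAMP antibody, and the mock list of that same antibody overlapped 30 of the 415 inside (7.23%). The centromere-proximal shared sites were therefore marked after dsRNA and rarely in mock cells by the same antibody. Inside on 3R and X the shares with a dsRNA peak were 93.0% and 87.1%. With the peaks of both lists that overlapped the dsRNA list taken out, 23 of 68 Mod(mdg4) peaks inside were shared (33.8%, 23.7 to 45.7). Outside, 133 of 1253 were (10.6%). CLAMP peaks were thus taken out as well, which could only lower the share of the Mod(mdg4) peaks that remained.

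**Figure D3:**
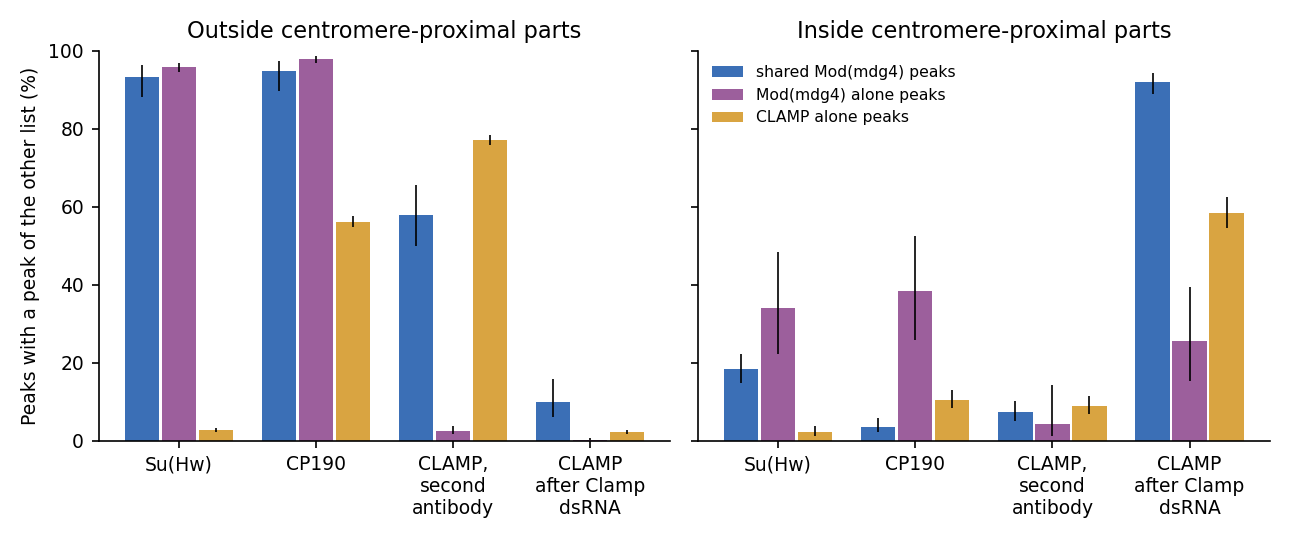
Share in percent of shared Mod(mdg4) peaks (blue), Mod(mdg4)-alone peaks (purple) and CLAMP-alone peaks (yellow) that overlap each other list, outside (left) and inside (right) the centromere-proximal parts. Lines are 95% Wilson intervals. Outside, shared and Mod(mdg4)-alone peaks stand together above 93% for Su(Hw) and CP190, and inside the shared peaks stand at 92.0% for the dsRNA list.

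Lists differed in how much of them lay near the centromeres. Inside lay 26.7% of Mod(mdg4) and 16.6% of CLAMP peaks, against 3.69% of Su(Hw), 2.41% of CP190 and 2.36% of the other CLAMP antibody. The dsRNA list stood highest with 71.9%. The CLAMP antibodies had fewer sites in common inside than outside. Of CLAMP-alone peaks, 8.96% inside and 77.0% outside also had a peak of the other antibody in mock cells.

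Mod(mdg4)-alone peaks inside differed by arm in their partners. Of these 47 peaks, 16 had both Su(Hw) and CP190 (34%, 22.2 to 48.3, against 3.37%, 2.02 to 5.58, of the shared) and 12 had a dsRNA peak (25.5%). Su(Hw) lay at 11 of the 16 alone and 12 of the 70 shared peaks on X. On 3R the counts were 0 of 20 alone and 50 of 329 shared, on 3L 3 of 5 and 12 of 12, and on 2L 2 of 6 and 2 of 4. For Su(Hw) the alone peaks thus had the higher share on X only. CP190 lay at 12 of the 16 alone and 4 of the 70 shared peaks on X, and at 0 of 20 and 4 of 329 on 3R. On 3L it lay at 3 of 5 and 7 of 12, and on 2L at 3 of 6 and 0 of 4. The counts on 3L and 2L are small. The strongest lay on X 956 bases from CG14621, with 12.2-fold Mod(mdg4), 20.1-fold Su(Hw) and 20.5-fold CP190 enrichment. The next lay nearest to lncRNA:CR45506 with 7.31-fold and to DIP-beta, a neuronal immunoglobulin-domain gene, with 5.89- and 5.25-fold. A further peak, near the pseudogene CR43170 on 3L, had 4.5-fold. All 5 carried Su(Hw) and CP190.

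CLAMP-alone peaks inside held a few strong sites and many weak ones. The 5 strongest lay at scro (17.4-fold), tio (12.6-fold), Clamp (11.5-fold), asRNA:CR45611 (10.8-fold) and CG17598 (9.27-fold). scro encodes an NK-type homeobox factor, tio a zinc-finger factor, and Clamp the protein itself. All 5 were also seen by the other CLAMP antibody, with folds from 10.9 to 19.2, and had no dsRNA peak. The bulk of the 603 was weak, with a median fold of 2.31, and 353 (58.5%) overlapped the dsRNA list. Folds of 8 or more were found in 5 of the 603, and in 0 of the 288 shared CLAMP peaks inside.

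On the rest of the arms, shared sites had the partners of Mod(mdg4) sites in general. Su(Hw) lay at 93.3% of the shared and 95.9% of the 1120 Mod(mdg4)-alone peaks, and CP190 at 94.7% and 97.9%. The intervals of each pair overlapped. They differed in both lists of the other CLAMP antibody. Its mock list marked 87 of the 150 shared peaks (58.0%, 50 to 65.6) and 29 of the 1120 others (2.59%, 1.81 to 3.69). Its list after dsRNA marked 15 (10%, 6.15 to 15.8) and 2 (0.179%, 0.049 to 0.649). The others were chosen for lacking a CLAMP peak, so the class rule itself favours such a gap. At the 87 sites the CLAMP folds had a median of 3.88, and at the 63 without the other antibody 2.38. Among CLAMP peaks outside, the other antibody in mock cells marked fewer of the shared (60.1%, 52.1 to 67.7) than of the CLAMP-alone peaks (77.0%, 75.7 to 78.3).

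From the side of CLAMP the outside shared sites followed Su(Hw). Of 261 CLAMP peaks with Su(Hw), 140 had Mod(mdg4) (53.6%, 47.6 to 59.6). Of 4218 CLAMP peaks without Su(Hw), 8 had it (0.19%, 0.0961 to 0.374). With CP190 the share was 142 of 2576 (5.51%), and without it 6 of 1903 (0.315%). A CLAMP peak outside was thus rarely at Mod(mdg4) unless Su(Hw) was there too. Of all 1270 Mod(mdg4) peaks outside, with or without CLAMP, 1212 had both Su(Hw) and CP190. Any set of peaks without Su(Hw) could therefore hold few Mod(mdg4) peaks.

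The outside shared Mod(mdg4) peaks without Su(Hw) and CP190 were 6. Of these, 5 lay on 2R below 5.5 Mb, which the definition of the parts does not count as inside. The immunoglobulin-domain gene DIP-lambda on 2R held 3 of them, with Mod(mdg4) folds of 2.93, 2.49 and 2.08 and CLAMP folds of 3.04, 3.04 and 1.66, where a single CLAMP peak covers the first pair. Near CG41520, 2 more had 2.67 and 2.78 for Mod(mdg4) and 2.72 and 3.08 for CLAMP. The last lay on X 4319 bases from CG11106, with 2.15 and 2.0. All 6 overlapped a dsRNA peak and none overlapped the other CLAMP antibody in mock cells. These sites were named after their values were seen.

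The 10 outside pairs that ranked best in both lists are named by the nearest gene, 0 to 1189 bases from the summit. The CLAMP and Mod(mdg4) summits lay 477 bases apart at CG17544, 481 at ush and 509 at Mrp4. At the other pairs they lay 5 to 151 bases apart. At su(Hw), which encodes the insulator protein Su(Hw), Mod(mdg4) was 11-fold and CLAMP 8.44-fold enriched. Nearest to CG17544 on 2L (19399313 to 19399684) the folds were 6.43 for Mod(mdg4) and 11.9 for CLAMP, the highest of any shared CLAMP peak outside. The GATA factor gene pnr on 3R (16040859 to 16041453) had 6.94-fold Mod(mdg4) and 7.99-fold CLAMP, with 14.7-fold Su(Hw) and 19.3-fold CP190. The gene ush, whose product is a cofactor of GATA factors, had 5.83 and 8.07. A GATA factor gene and a GATA cofactor gene were thus both among the 10 best pairs. Whether such genes recur among the shared sites was not tested.

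The Hedgehog co-receptor gene boi on X had 7.81-fold Mod(mdg4) and 7.43-fold CLAMP, and CrebB, a gene for a cyclic AMP-responsive factor, had 4.61 and 10.2. At the teneurin gene Ten-m on 3L the folds were 8.56 and 6.55, and nearest to the transporter gene Mrp4 they were 6.86 and 7.07. CG33453 had 7.73 and 8.21, and CG32204 had 6.56 and 7.27. All 10 pairs had Su(Hw) and CP190 peaks, none had a dsRNA peak, and 9 had a peak of the other CLAMP antibody, Mrp4 being the exception.

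The 8 strongest CLAMP-alone peaks outside had folds of 17.7 to 21.3. They lay nearest to CG13891 (21.3-fold), the T-box genes mid (20.9-fold) and H15 (20.1-fold), the Pax gene toy (20.7-fold), the homeobox genes Vsx1 (18.4-fold) and hth (18.0-fold), the bromodomain gene fs(1)h (18.3-fold) and the Polycomb group gene ph-d (17.7-fold). All 8 had a peak of the other CLAMP antibody. Su(Hw) was present at 1 of them, ph-d, with 3.09-fold enrichment. CP190 was present at 3, CG13891, toy and fs(1)h, and a dsRNA peak at 4, Vsx1, fs(1)h, hth and ph-d, with folds of 1.8 to 3.28.

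The strongest Mod(mdg4)-alone peaks outside all had Su(Hw) and CP190. The 8 strongest lay nearest to pyd, which encodes a cell junction protein (14.9-fold), the leucine zipper factor gene Pdp1 (13.5-fold), the immune peptide gene BaraA2 (13.1-fold), the octopamine receptor gene Octalpha2R (13.1-fold), CG17230 (13.0-fold), the glycosyltransferase gene Pgant9 (13.0-fold), the odorant receptor gene Or43a (12.7-fold) and CG31559 (12.6-fold). Their Su(Hw) folds ran from 20.9 to 29.9 and their CP190 folds from 13.7 to 22.1. None of the 8 had a peak of the other CLAMP antibody. The BaraA2 site lay 3163 bases from the gene and the others within 345 bases of theirs.

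Fold enrichment by class is a description within each list, since the lists were scaled separately. Outside, shared Mod(mdg4) peaks had a median fold of 4.78 (interval of the median 4.42 to 5.45, quartiles 3.44 and 7.12), and Mod(mdg4)-alone peaks 4.12 (4.02 to 4.26, quartiles 3.14 and 5.73). Of the 318 strongest outside Mod(mdg4) peaks 54 were shared (17%, 13.3 to 21.5), and of the 318 weakest 31 (9.75%, 6.95 to 13.5), with intervals that just overlap. CLAMP went the other way outside, with a median of 2.82 (2.61 to 3.14) for shared and 3.24 (3.17 to 3.32) for CLAMP-alone peaks. Folds of 8 or more were found in 11 of 148 shared and 525 of 4331 CLAMP-alone peaks (7.43% and 12.1%). Of the 1120 strongest CLAMP peaks outside 31 were shared (2.77%) and of the 1120 weakest 45 (4.02%), also with overlapping intervals.

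Inside, folds were low in every class, with medians of 2.71 and 2.31 for shared and alone CLAMP peaks and 2.64 and 2.70 for Mod(mdg4). Of the 223 weakest CLAMP peaks inside 43 were shared (19.3%, 14.6 to 25), of the next 223 32 (14.3%), and of the 223 strongest 132 (59.2%, 52.6 to 65.4). For Mod(mdg4) inside the share was 91.4% of the 116 weakest and 86.2% of the 116 strongest, with overlapping intervals. Across the overlapping pairs, the folds of both proteins had a Spearman rho of 0.25 inside (428 pairs) and 0.00165 outside (151 pairs). Pairs of a part share the same libraries, and neighbouring pairs may share sequence, so these values describe the pairs.

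**Figure D4:**
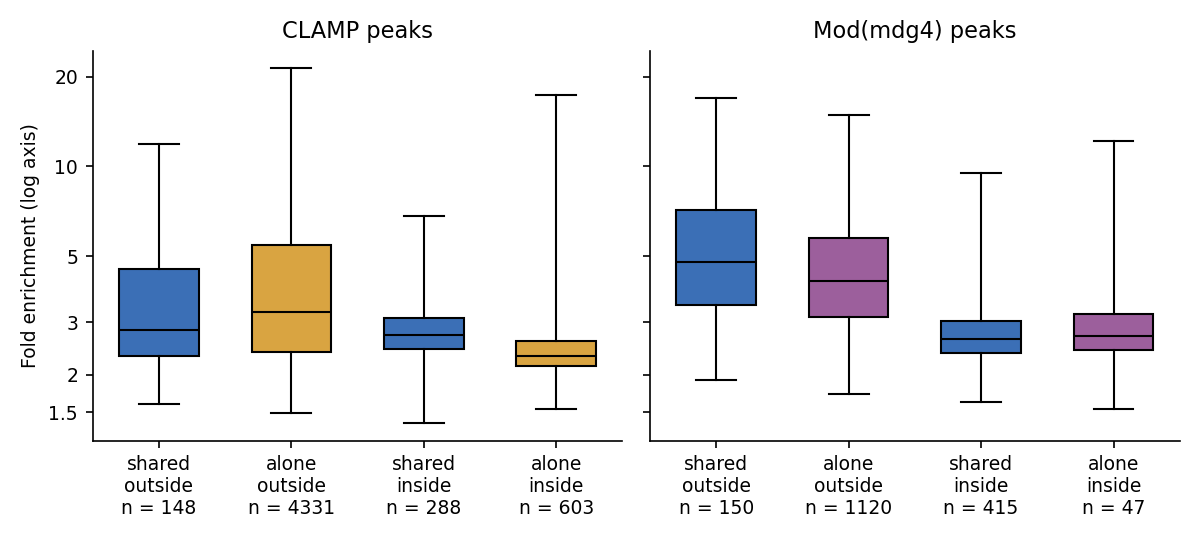
Fold enrichment as deposited (log axis) of CLAMP peaks (left) and Mod(mdg4) peaks (right) by class and part. Boxes span the quartiles with the median as a line, whiskers reach the lowest and highest peak, and n is the number of peaks. The inside boxes sit near 2 to 3, and the outside Mod(mdg4) boxes have medians of 4.78 for shared and 4.12 for alone.

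Shared CLAMP peaks were wider near the centromeres and the summits of pairs further apart. The median width of shared CLAMP peaks was 785 bases inside and 417 outside, and the widest covered 14471 bases. Shared Mod(mdg4) peaks had median widths of 420 bases inside and 490 outside. Of the 288 inside, 67 overlapped more than 1 Mod(mdg4) peak, up to 11, against 3 of 148 outside. Summits of overlapping pairs lay at a median of 226 bases inside (interval 162 to 294) and 70 bases outside (52 to 93). Within 50 bases lay 112 of 428 pairs inside (26.2%) and 62 of 151 outside (41.1%). Summits over 1000 bases apart were found in 92 pairs inside and 3 outside. Without CLAMP peaks over 2000 bases wide, 253 of 462 Mod(mdg4) peaks inside were shared (54.8%) and 144 of 1270 outside (11.3%). All Mod(mdg4) peaks stayed in these counts, so taking out CLAMP peaks could only lower the shares.

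**Figure D5:**
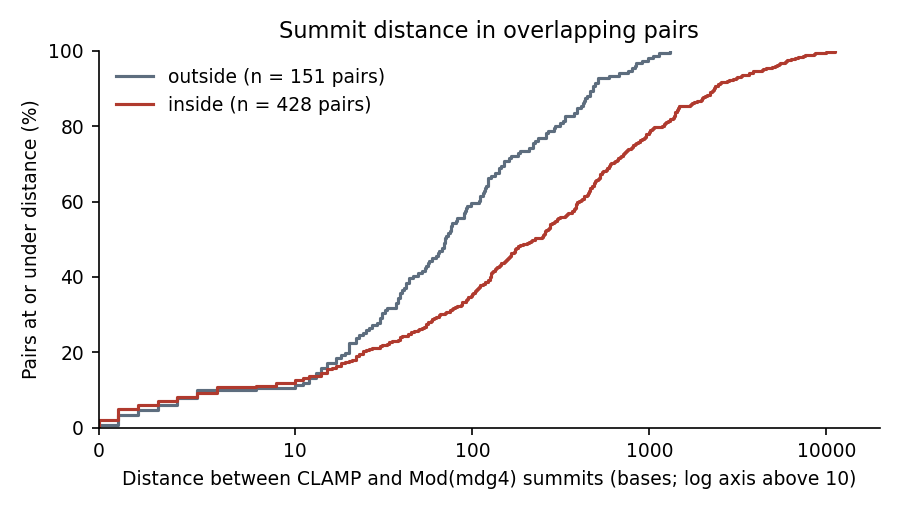
Cumulative share of overlapping CLAMP and Mod(mdg4) pairs by the distance between their summits in bases (linear to 10, log above), outside (grey, 151 pairs) and inside (red, 428 pairs) the centromere-proximal parts. The outside curve passes 50% at 70 bases and the inside curve at 226 bases.

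The smallest overlap of a shared pair was 12 bases, near spok on 3R, with folds of 3.13 for Mod(mdg4) and 1.88 for CLAMP. The closest pair without overlap lay 3 bases apart near CG17834 on 2L, with 4.04 and 6.26. In all, 84 Mod(mdg4)-alone peaks had a CLAMP peak within 1000 bases. The Mod(mdg4) peak next to the limit of the part on X lay 60.9 kb inside near bves (3.6-fold, shared) and 53.1 kb outside near Npc1b (3.06-fold, alone). On 3R the nearest lay 972 kb inside near Parp1 (2.32-fold, alone) and 159 kb outside near smash (4.73-fold, shared). On 3L they were at CG33217 (117 kb, 4.75-fold, shared) and CG32457 (17.7 kb, 5.54-fold, alone), and on 2L at CG31601 (45.2 kb, 3.44-fold, alone) and lncRNA:CR44786 (188 kb, 2.37-fold, alone). The CLAMP peaks next to the limits were all CLAMP alone, with folds of 1.58 to 4.2.

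Shared sites lay at gene ends far more often on the arms than near the centromeres. A summit within 500 bases of either end of a gene was found for 33.8% of shared CLAMP peaks outside (26.7 to 41.7) and 37.7% of CLAMP-alone peaks, and for 32% and 31.3% of Mod(mdg4) peaks. Inside, 1 of 288 shared CLAMP and 4 of 415 shared Mod(mdg4) peaks had such a summit. Of 603 CLAMP-alone peaks inside 48 did (7.96%, 6.06 to 10.4). Gene ends are also sparser inside, with 389 genes over 13.6 Mb against 17284 over 120 Mb outside. The part of gene density in these shares was not tested. Of the 17673 genes on the arms, 2259 (12.8%) had CLAMP at an end and 529 (2.99%) Mod(mdg4), and 119 (0.673%) had both. A gene with both could have them at different ends or in peaks that did not overlap. The 119 genes were 5.27% of the CLAMP genes and 22.5% of the Mod(mdg4) genes. Inside, 60 of 389 genes had CLAMP (15.4%), 6 had Mod(mdg4) (1.54%) and 2 had both (0.514%), the pseudogene CR41571 and CG32512. Outside, 2199 of 17284 genes had CLAMP (12.7%), 523 had Mod(mdg4) (3.03%) and 117 had both (0.677%).

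Some of the genes with both proteins at their ends were chosen after their values were seen. The folds are the highest within 500 bases of either end, so the peaks of both proteins need not overlap. Loxl1 and Gprk2 on 3R share the strongest Mod(mdg4) peak of the list (16.9-fold) and had 3.14-fold CLAMP. The EGF receptor antagonist gene aos had 11.2-fold Mod(mdg4) and 2.68-fold CLAMP. Higher CLAMP was found at ss, a gene for a bHLH-PAS factor, with 14.1-fold beside 7.65-fold Mod(mdg4), and at the small GTPase gene Rac2, with 11.2 and 6.6. The 14.1-fold peak at ss exceeds 11.9, the highest fold of a shared CLAMP peak outside, and was thus CLAMP alone. The GATA factor gene srp, needed for blood cells, had 3.39-fold CLAMP and 4.5-fold Mod(mdg4). The order of the CLAMP and Mod(mdg4) folds thus differed among these genes.

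Gene lists were counted by the ends of their members, beside the shares over all genes of 12.8%, 2.99% and 0.673%. Of 26 insulator and architectural protein genes 7 had CLAMP and 1, su(Hw), had Mod(mdg4) as well. At mod(mdg4) itself CLAMP was 2.4-fold enriched and Mod(mdg4) absent. CLAMP also lay at pzg (11.1-fold) and Clamp. Of 18 heterochromatin protein genes 3 had CLAMP, ADD1 (7.27-fold), G9a (2.56-fold) and wde (2.25-fold), and 0 had Mod(mdg4). The 34 genes of pericentromeric heterochromatin had CLAMP at 4, scro, RpL15 (2.92-fold), p120ctn (2.2-fold) and RpL5 (2.17-fold), and Mod(mdg4) at 1, Myo81F (2.54-fold). None of them had both at their ends, although 5 of them had shared sites within their span.

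Of the 8 Hox genes, which specify segments along the body, 6 had CLAMP, with abd-A at 13.9-fold, Dfd at 12-fold and Antp at 2.31-fold, and 0 had Mod(mdg4). Within its span Antp held a shared Mod(mdg4) peak of 4.93-fold, away from its ends. The 10 dosage compensation genes had CLAMP at 3, Clamp, lncRNA:roX2 (3.36-fold) and Sxl (2-fold), and Mod(mdg4) at 0, and the 15 cohesin and condensin genes at 2 and 0. The 2 were Cap-G (2.55-fold) and SMC2 (1.68-fold), which encode condensin subunits, and 13.3% is near the share of all genes. At the 2.99% of all genes with Mod(mdg4), lists of this size can hold 0 without standing apart.

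Small RNA genes differed by kind. Of 32 small nuclear RNA genes, 9 had CLAMP, 6 had Mod(mdg4) and 4 had both (12.5%, against 0.673% of all genes). The 4 were snRNA:U4:39B (3.23-fold CLAMP, 4.15-fold Mod(mdg4)), snRNA:U5:63BC (2.34 and 4.5), and snRNA:U2:34ABc and snRNA:U5:34A, which share the same peaks (2.86 and 2.85). All 4 had Su(Hw) and CP190 at their ends and none had a peak of the other CLAMP antibody. Genes of this class have near-identical copies, among which reads may be divided, so these counts are uncertain. Of 295 transfer RNA genes 23 had CLAMP, 8 had Mod(mdg4) and 1 had both, tRNA:Leu-CAA-2-3 (5.29 and 8.73). Of 260 microRNA genes 21, 3 and 3 did. These were mir-34 (1.87-fold CLAMP, 7.09-fold Mod(mdg4)), and mir-982 and mir-303, which share a peak of each (1.93 and 3.7).

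Noncoding gene classes of other kinds were near the shares of all genes or under them. Of 257 small nucleolar RNA genes 16 had CLAMP, 2 had Mod(mdg4) and 0 had both. Of 503 antisense RNA genes 60, 14 and 1 did, and of 1944 long noncoding RNA genes 185, 38 and 4. By these counts 0.199% of antisense and 0.206% of long noncoding RNA genes had both proteins at their ends.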

How the data were processed

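Peak lists of Kc167 ChIP-seq were deposited in the narrowPeak layout, with no header lines. Build dm6 and the tools MACS2 2.1.0.20150731, Picard, SAMtools 1.2, cutadapt 1.8.1 and Bowtie2 2.2.9 are named in the submitters' processing notes. Their settings, the peak threshold and the depth of the libraries are unknown here. Row names in the deposited lists say pooled. The fold enrichment deposited by the authors is a ratio of ChIP over background, compared within a list only. The deposited -log10 q was used in an alternative, and the deposited score equals 10 times it, rounded down, in every peak on the arms. Per the labels, the CLAMP libraries have the numbers 8 and 33 with inputs 16 and 39, and those of Mod(mdg4) 7 and 30 with inputs 15 and 36.

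Lists were intersected in Python 3.11.15 with pandas 2.3.3 and NumPy 2.4.6, with the overlap step tested on simulated intervals. The summit set the part of a peak. Genes, 17673 on the arms, were taken from RefSeq (Release 6 plus ISO1 MT) as spans with no strand, and a planned search for GA repeats was not run. Of the listed names SA matched no gene, and Parp and Cht3 were matched by synonym to Parp1 and Cht10. Shares have 95% Wilson intervals (SciPy 1.17.1) and medians order-statistic intervals. No p-value was computed, since each group has 1 pooled list. Named sites were the 10 pairs per part with the best sum of ranks by fold, the 8 strongest alone peaks of each list outside and 5 inside, and list members with both proteins at an end or up to 4 with either. Members and lists were chosen with earlier results of these data known.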

Additional observations from a re-analysis of the deposited data

Results flagged for a closer look

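Peaks off the 6 arms, on the Y chromosome, unplaced sequences and the mitochondrial genome, were in no comparison above. Of 186 Mod(mdg4) peaks there, 164 overlapped a CLAMP peak (88.2%, 82.7 to 92.1), and of 264 CLAMP peaks 154 overlapped Mod(mdg4) (58.3%, 52.3 to 64.1).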

How the results depend on the processing

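No paired analysis was possible because each list pools its 2 libraries, and the title numbers of CLAMP (3 and 8) and Mod(mdg4) (2 and 5) do not match. Leaving out 1 library at a time was not run, since the lists are pooled. Values below are in the order all, inside, outside, and values not given stayed within the interval of the reported one. The cause of each move was not tested.

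The Mod(mdg4) share with CLAMP became 19.3%, 47.4% and 9.13% with summits within 250 bases, 9.93%, 72.9% and 6.23% in the strongest 50% of each list, and 2.4%, 2.5% and 2.39% in the strongest 1000. The strongest 1000 left 15 CLAMP peaks inside for the 80 Mod(mdg4) peaks there. The CLAMP share with Mod(mdg4) became 6.13%, 23.9% and 2.59%, then 3.24%, 22.2% and 2.02%, then 2.4%, 13.3% (2 of 15 peaks) and 2.23%. With a -log10 q of at least 5 the shares over all peaks were 25.2% and 6.52%. Parts widened by 1 Mb gave 83.6% and 29.2% inside.

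Further alternatives were chosen after seeing the data and are given for all peaks and inside. Without arm 3R the Mod(mdg4) share was 19% and 76.1% and the CLAMP share 5.2% and 37.4%. Without the peaks of both lists at a dsRNA-list peak these were 11.8% and 33.8%, and 3.4% and 8.63%. Without the span of Myo81F they were 20.1% and 80.5%, and 5.53% and 28.9%. Without CLAMP peaks over 2000 bases wide they were 22.9% and 54.8%, and 7.26% and 28.3%. All Mod(mdg4) peaks were kept there, so the Mod(mdg4) share could only fall.

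Genes with both summits near an end numbered 48, 1 and 47 within 200 bases and 241, 4 and 237 within 1000 bases. Of shared Mod(mdg4) peaks inside, 77.6% with summits within 250 bases and 83.5% with a -log10 q of at least 5 had a dsRNA peak, and 6.06% of the latter had CP190. Outside, 46.6% with summits within 250 bases had the other CLAMP antibody.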
